A study of Mus musculus with 83 samples.

Results

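The 60 microRNAs described here were those most abundant in control mouse sperm outside a set of well-known families. They were chosen by their mean level in the 3 control libraries of the sperm small RNA counts. The level is in CPM, which is the count divided by the library total and scaled to a total of 1000000. Before ranking, let-7 and 32 microRNA numbers were left out, among them the miR-10, miR-30, miR-200, miR-34 and miR-17 families, miR-378 and the blood and muscle microRNAs. This removed 79 of 1123 microRNA rows and left 1044, from which 60 were taken. The whole sperm table held 2052 small RNA features. Because control levels chose these microRNAs, their high level in control sperm is a description and not a result.

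The series concerns a father's heat exposure and his embryos, and holds 83 libraries, of which 77 are from embryos and were not used here. Male mice of 8 to 12 weeks spent 7 days either in sham housing at a constant 21 °C (control) or under cycled heat, each day with 8 h of warmth at 35 °C and the other 16 h at 25 °C (heat). Sperm came from the cauda epididymis, the storage end of the duct that sperm pass after leaving the testis. RNA of 18 to 40 nt was cut from a gel and sequenced in 3 control and 3 heat libraries. The labels give no allele, strain cross or agent that sets the groups apart, and do not say how many males stand behind a library. The comparison asks whether a week of warmth leaves sperm with other levels of these microRNAs.

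MicroRNAs are short RNAs cut from hairpin precursors. Loaded into Argonaute proteins, they lower the stability and translation of messenger RNAs, which they find mainly by pairing of bases 2 to 8, the seed. Transcription nearly stops late in sperm formation, and the small RNA of mature sperm includes both RNA made in the testis and RNA taken up while sperm pass through the epididymis, whose epithelium releases vesicles. A group of rodent microRNA genes on the X chromosome is known for expression in the male germ line, also during meiosis, when most X-linked genes are silent.

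The mature sequences that carry the results are shown 5′ to 3′ as in RefSeq for GRCm38.p6, with the seed in capitals. The deposited rows count whole hairpins, so the arm shown is the one usually more abundant and not one measured here. Listed first are the most abundant members and miR-148b, a less abundant one that shares its seed with miR-148a. The other seeds in this first list differ.
miR-191-5p: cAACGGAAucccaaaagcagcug
miR-22-3p: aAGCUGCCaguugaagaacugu
miR-148a-3p: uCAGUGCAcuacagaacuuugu
miR-148b-3p: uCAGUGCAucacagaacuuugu
miR-21a-5p: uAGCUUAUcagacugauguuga
miR-27b-3p: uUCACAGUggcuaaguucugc

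The following were picked because members with 1 seed can be read together. They are the miR-15 and miR-16 family, the miR-26 family, miR-146, miR-181 and the miR-130 group.
miR-16-5p: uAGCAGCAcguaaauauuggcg
miR-15a-5p: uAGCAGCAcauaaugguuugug
miR-15b-5p: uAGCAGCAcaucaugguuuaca
miR-26a-5p: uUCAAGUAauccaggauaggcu
miR-26b-5p: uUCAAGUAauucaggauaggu
miR-146a-5p: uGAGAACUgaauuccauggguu
miR-146b-5p: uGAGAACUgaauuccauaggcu
miR-181c-5p: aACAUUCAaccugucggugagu
miR-181d-5p: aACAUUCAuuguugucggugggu
miR-130a-3p: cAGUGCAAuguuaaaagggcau
miR-301a-3p: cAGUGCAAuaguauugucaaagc

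The X-linked testis microRNAs are shown because they made up 14 of the 60 and included the member with the smallest p-value. miR-743a and miR-743b share a seed, as do the miR-465 rows, whose 3p arms are identical in full.
miR-743a-3p: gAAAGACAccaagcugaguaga
miR-743b-3p: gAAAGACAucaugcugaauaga
miR-883a-3p: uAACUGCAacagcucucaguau
miR-741-3p: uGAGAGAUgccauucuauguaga
miR-881-3p: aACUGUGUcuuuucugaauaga
miR-871-3p: uGACUGGCaccauucuggauaau
miR-470-5p: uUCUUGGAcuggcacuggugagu
miR-465c-3p: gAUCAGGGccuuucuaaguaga

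The 6 sperm libraries held between 6429221 and 9936108 counts. MicroRNA rows took 20.0, 10.6 and 12.3% of the counts in control replicates 1, 2 and 3 and 15.1, 11.3 and 12.1% in heat replicates 1, 2 and 3. Control replicate 1 had the highest CPM of the control libraries for 53 of the 60 members, and heat replicate 1 the highest of the heat libraries for 45. rRNA took 49.8% of the counts in heat replicate 3, against 24.6 to 29.2% in the other 5 libraries. For this reason values are given as CPM and, where it matters, also as percent of the microRNA counts of the library.

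The 60 members spanned a 119-fold range of control level, from 64.6 to 7673 CPM, with a median of 257 CPM. The number of counts behind a value lay between 140 and 98439. A pair of microRNAs, Mir191 and Mir22, gave 33.9% of the members' summed control level, and the 12 most abundant gave 67.5%. The threshold cut a continuous slope of levels. Mir3107, Mir3473e and Mir672 lay just inside it with 67.3, 64.7 and 64.6 CPM, and Mir130b, Mir1839 and Mir320 just outside with 62.6, 56.7 and 55.7 CPM. Ranking by the heat libraries would have kept 57 of the 60, and ranking by all 6 libraries 59.

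**Figure D1:**
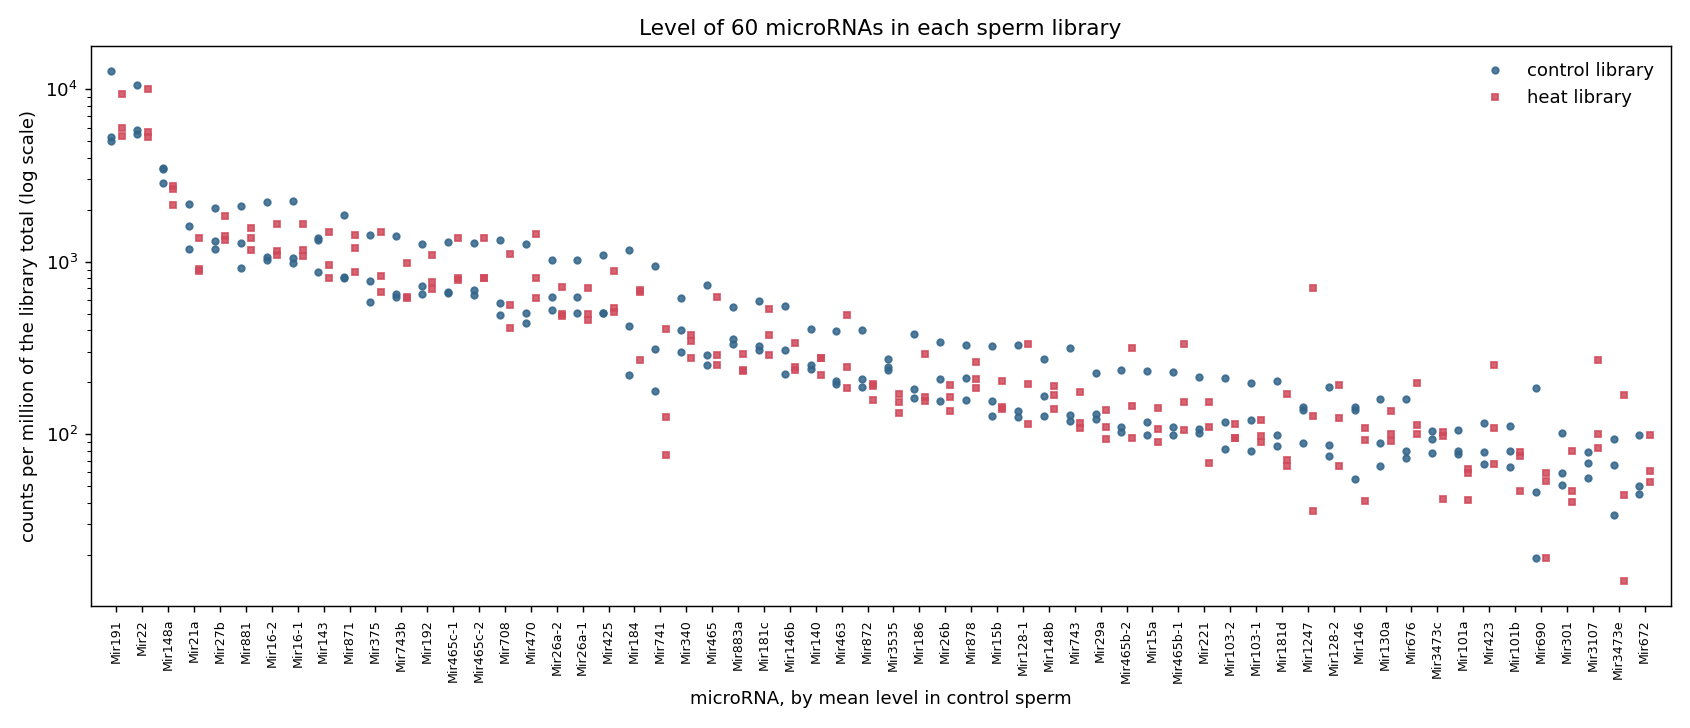
Level of each of the 60 microRNAs in every sperm library, as CPM on a log scale, ordered by the mean of the 3 control libraries (circles) with the 3 heat libraries (squares) beside them. For most members the 2 groups interleave, and the spread among replicates widens toward the low end at Mir1247, Mir690 and Mir3473e.

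Together the 60 took 6.55, 3.25 and 3.51% of all counts in the control libraries and 5.33, 3.39 and 3.36% in the heat libraries. The control mean was 4.43 ± 1.84% (SD, n = 3) and the heat mean 4.03 ± 1.13% (SD, n = 3), a difference within the spread between libraries (two-sided exact permutation test, p = 0.7). Of the microRNA counts alone the control share was 30.6 ± 2.19% (SD, n = 3) and the heat share 31.04 ± 3.80% (SD, n = 3; two-sided exact permutation test, p = 1). With 3 libraries against 3, this test cannot give a p below 0.1. The groups overlapped on both scales.

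None of the 60 passed the test of heat against control. All 60 entered the edgeR quasi-likelihood fit over 1407 features, and the smallest Benjamini-Hochberg adjusted p among them was 0.476, which was also the smallest over all features. The share of all features called was 0%. At an unadjusted p under 0.05, 1 member was lower in heat (Mir741) against a background of 1.56% of features, and 1 was higher (Mir3107) against 7.53%. DESeq2 also called 0 members, with 2 at an unadjusted p under 0.05. The standard errors of the log2 fold changes ran from 0.39 to 0.54 with a median of 0.44, so changes of that size were not detectable in these libraries. Larger changes could be missed too, since neither Mir741 at -1.38 nor Mir3107 at 0.93 was called.

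The fitted log2 fold change, heat over control, was below 0 for 40 of the 60, or 66.7%. The same held for 48.2% of all features tested and 71.9% of the 566 microRNA rows tested. The members' median was -0.11, that of all microRNA rows tested -0.27 and that of all features 0.03. When microRNA rows were fitted alone, 18 of the 60 lay below 0 and the members' median was 0.21. Leaving out 1 library also moved the count, to 28 below 0 with a median of 0.02 without control replicate 1 and to 29 with a median of 0.01 without heat replicate 2. Within 0.5 of 0 were 52 members, 5 lay lower and 3 higher.

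**Figure D2:**
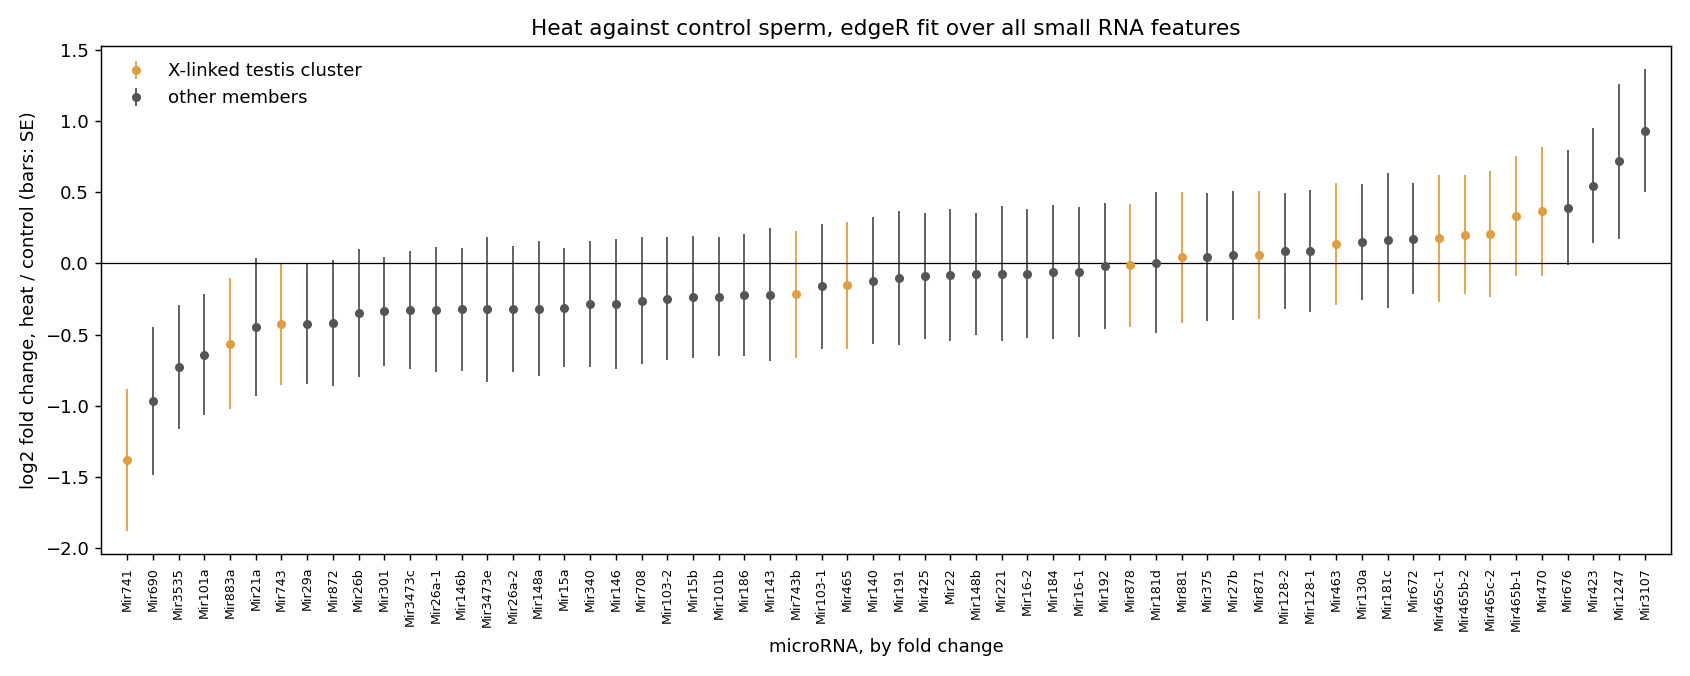
Log2 fold change of heat over control sperm for the 60 microRNAs, sorted, with standard errors as bars, from the edgeR fit over all small RNA features. Members of the X-linked testis cluster are in orange and run from Mir741, the lowest of the 60, at -1.38 to Mir470 at 0.37, below Mir676, Mir423, Mir1247 and Mir3107.

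In CPM, the heat libraries all lay under the control libraries for 4 members (Mir148a, Mir883a, Mir3535 and Mir101a), where 3.91% of features tested did so. They all lay above for 1 member (Mir3107), where 1.21% of features did so. As a share of microRNA counts, 5 members (Mir26a-1, Mir26a-2, Mir883a, Mir872 and Mir29a) were lower without overlap, beside 5.83% of microRNA rows tested. Of these, Mir26a-1 and Mir26a-2 yield the same mature sequence and are not independent measurements. A further 4 (Mir27b, Mir465c-2, Mir130a and Mir676) were higher without overlap, beside 2.47% of rows. Mir883a was the only member whose heat libraries lay lower without overlap on both scales.

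Mir191 and Mir22 were the most abundant members. Mir191 (chr9:108568319-108568392 in GRCm38.p6) is produced with Mir425 from an intron of Dalrd3. It had 12713, 5019.9 and 5285 CPM in control replicates 1, 2 and 3 and 9444, 5949.9 and 5361 CPM in heat replicates 1, 2 and 3. Mir425, from the same transcript, had 1091, 507 and 501 CPM in control and 885, 509.1 and 538 CPM in heat sperm. The count ratio of Mir191 to Mir425 stayed between 9.90 and 11.7 in all 6 libraries, so the pair kept its proportion while its level varied widely between control replicates. Mir22 (chr11:75463716-75463810), whose host is the noncoding gene Mir22hg, had 10642, 5543 and 5829 CPM in control and 10041, 5653 and 5302 CPM in heat sperm. The fitted log2 fold changes of Mir191, Mir425 and Mir22 were -0.10 (SE 0.47), -0.09 (SE 0.44) and -0.08 (SE 0.46).

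Mir148a and Mir21a came next in level and had lower mean CPM in heat sperm, though neither passed the test. Mir148a (chr6:51269812-51269910), a member of the miR-148 and miR-152 family that targets the DNA methyltransferase Dnmt1, had 3468, 2852 and 3481 CPM in control and 2636, 2138 and 2755 CPM in heat sperm. Every heat library lay under every control library, and the fitted log2 fold change was -0.32 (SE 0.48). As a share of microRNA counts its libraries overlapped, with 1.74, 2.70 and 2.82% in control and 1.74, 1.90 and 2.28% in heat sperm. Mir148b, which shares the seed at a far lower level, had 271, 127.8 and 167 CPM in control and 189.6, 140.1 and 169 CPM in heat sperm. Mir21a (chr11:86584067-86584158) lies in the Vmp1 gene and is found in most tissues. It had 2153, 1178 and 1608 CPM in control and 908, 880.2 and 1377 CPM in heat sperm, and the groups overlapped through control replicate 2 and heat replicate 3. Its fitted log2 fold change was -0.45 (SE 0.48), which moved to -1.09 when heat replicate 3 was left out and to -0.11 when heat replicate 1 was. For Mir148a the same omissions gave -0.75 and -0.06.

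Mir27b, which targets regulators of fat cell formation, had 2052, 1187 and 1314 CPM in control and 1838, 1341 and 1403 CPM in heat sperm. Its share of microRNA counts was the steadiest among heat libraries of all 60 members. That share was 1.03, 1.12 and 1.06% in control and 1.21, 1.19 and 1.16% in heat sperm, which did not overlap. The gap was small in size, at 1.11 times the control mean.

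The miR-15 and miR-16 family, known for limiting Bcl2 and cell cycle genes, gave 4 members with 1 seed. Mir16-1 had 2247, 986 and 1050.0 CPM in control and 1649.7, 1083 and 1170.4 CPM in heat sperm. Mir16-2 had 2230.2, 1019 and 1063 CPM in control and 1659.7, 1097 and 1162 CPM in heat sperm. These rows lie on chromosomes 14 and 3 but yield the same mature sequence, and their counts differed by at most 3.42% in any library, so they were not independent measurements. Mir15a sits beside Mir16-1 in the Dleu2 transcript and had 232, 98.3 and 117 CPM in control and 142.1, 89.95 and 106.8 CPM in heat sperm. Mir15b, the neighbour of Mir16-2 in an intron of Smc4, had 326, 127.6 and 154.6 CPM in control and 202.7, 143.9 and 139 CPM in heat sperm. In both pairs miR-16 exceeded its neighbour in every library. The count ratio of Mir16-1 to Mir15a was 9.70, 10.02 and 8.94 in control and 11.6, 12.04 and 10.96 in heat sperm, which did not overlap. That of Mir16-2 to Mir15b was 6.84, 7.99 and 6.88 in control and 8.19, 7.62 and 8.33 in heat sperm, which overlapped. Neither ratio was tested. Since both miR-16 rows give the same mature sequence, neither ratio describes its own locus alone. Of the 9 rows of the wider family list, all tested, 8 were below 0 and 1 above, with 0 called and a median log2 fold change of -0.24. That median was -0.10 on omitting control replicate 1 and -0.43 on omitting control replicate 3. Of the same rows 3 were below 0 and 6 above when microRNA rows were fitted alone.

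Mir26a-2 had the most even share of microRNA counts among control libraries of all 60 members. The 3 genes of its family lie in introns of the small phosphatase genes Ctdspl, Ctdsp2 and Ctdsp1, and miR-26 is known to target Ezh2. Mir26a-1 took 0.510, 0.474 and 0.506% of microRNA counts in control and 0.463, 0.442 and 0.382% in heat sperm. Mir26a-2, with the same mature sequence and counts within 5.11% of Mir26a-1, took 0.512, 0.498 and 0.506% in control and 0.470, 0.441 and 0.400% in heat sperm. Each heat share of these rows lay under each control share, but the rows were not independent measurements. Mir26b, which differs in a few bases outside the seed, took 0.171, 0.147 and 0.168% in control and 0.108, 0.120 and 0.160% in heat sperm, and overlapped only where control replicate 2 fell under heat replicate 3. In CPM all 3 rows overlapped between groups, with Mir26a-2 at 1023, 527 and 625 CPM in control and 713, 497.2 and 483 CPM in heat sperm. Fitted log2 fold changes were -0.33, -0.32 and -0.35 with standard errors of 0.44 to 0.45, and -0.01 to -0.05 when microRNA rows were fitted alone. Their median of -0.33 became -0.52 on omitting heat replicate 3 and -0.18 on omitting heat replicate 1.

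Mir101a and Mir101b, also known regulators of Ezh2, are listed in RefSeq with 3p arms offset by a base. They read as follows, with the seed in capitals.
miR-101a-3p: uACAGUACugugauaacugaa
miR-101b-3p: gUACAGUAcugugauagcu
Mir101a had 76.7, 79.8 and 105 CPM in control and 59.8, 41.6 and 62.5 CPM in heat sperm, without overlap. Mir101b had 112, 64.6 and 79.5 CPM in control and 75.0, 46.6 and 79.2 CPM in heat sperm, with overlap. Mir101a had a fitted log2 fold change of -0.64 (SE 0.43) and Mir101b of -0.23 (SE 0.42), and neither passed the edgeR test (adjusted p of 0.612 and 0.959).

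Mir29a, known for targeting collagens and DNA methyltransferases, took 0.113, 0.116 and 0.106% of microRNA counts in control and 0.0910, 0.0828 and 0.0908% in heat sperm. The heat shares were lower without overlap and the replicates of each group lay close together. In CPM the groups overlapped, with 225, 122.5 and 131 CPM in control and 138, 93.3 and 109.7 CPM in heat sperm, and the fitted log2 fold change was -0.42 (SE 0.42). Mir872, inside Ift74, showed the same arrangement, with 0.1999, 0.177 and 0.168% in control and 0.129, 0.140 and 0.157% in heat sperm.

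The miR-103 rows sit in introns of the pantothenate kinase genes Pank3 and Pank2. Mir103-1 had 198.9, 79.7 and 120.1 CPM in control and 89.6, 97.1 and 121 CPM in heat sperm. Mir103-2 gives the same mature sequence and had 212, 82.4 and 118 CPM in control and 94.8, 94.3 and 114 CPM in heat sperm. Their counts differed by at most 6.56% in any library, and heat lay inside the range of control.

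Mir128-1 and Mir128-2 also give 1 mature sequence, but their counts differed by 1.56 to 1.75 times. Mir128-1, in R3hdm1, had 327, 125.8 and 135.8 CPM in control and 335, 194.5 and 115 CPM in heat sperm. Mir128-2, in Arpp21, had 187, 74.8 and 86.9 CPM in control and 192.4, 123.8 and 65.5 CPM in heat sperm.

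Among microRNAs tied to immune signalling, Mir146 and Mir146b, which damp the NF-kB pathway through Traf6 and Irak1, overlapped between groups. Mir146 had 143.3, 55.2 and 138 CPM in control and 92.5, 41.0 and 108 CPM in heat sperm, and Mir146b had 551, 221.8 and 307 CPM and 338, 244 and 234 CPM. The miR-181 rows, known from lymphocyte development, come from 1 cluster on chromosome 8. Mir181c had 591, 307 and 325 CPM in control and 376.8, 287 and 531 CPM in heat sperm. Mir181d had 202, 85.7 and 98.6 CPM in control and 65.0, 70.5 and 171 CPM in heat sperm. Heat replicate 3 was the highest heat library for both, and the ratio of Mir181c to Mir181d ranged from 2.92 to 5.80, a looser link than that of Mir191 to Mir425. Mir221, an X-linked microRNA known to target Kit, also had its highest heat value in heat replicate 3, with 213.7, 101.3 and 108 CPM in control and 67.5, 109.7 and 154.5 CPM in heat sperm.

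Mir130a and Mir301 share a seed. Mir130a had 0.0804, 0.0620 and 0.0721% of microRNA counts in control and 0.0900, 0.0814 and 0.0829% in heat sperm, higher without overlap. Mir301, in Ska2, had 0.0506, 0.0481 and 0.0479% in control and 0.0523, 0.0357 and 0.0386% in heat sperm, with heat replicate 1 above all controls and the other heat libraries below. Their fitted log2 fold changes were 0.15 (SE 0.41) and -0.34 (SE 0.39).

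In the wider family lists 0 rows were called. The miR-148 and miR-152 list had 3 of 3 tested rows below 0 with a median of -0.32, the miR-23, miR-27 and miR-24 list 5 of 6 with a median of -0.45, and the miR-29 list 3 of 4 with a median of -0.27. The miR-181 list had 2 of 6 rows below 0 with a median of 0.08. For the miR-130 and miR-301 list it was 2 of 4 tested rows, with a median of -0.09. With microRNA rows fitted alone, the medians of the first 3 lists were -0.02, -0.13 and -0.11, that of miR-181 was 0.38 with 0 of 6 rows below 0, and that of miR-130 and miR-301 turned to 0.21. The miR-181 median turned to -0.10 with library totals, -0.12 with limma-voom, -0.13 with the replicate block and -0.25 under the stricter filter. It stayed above 0 with RLE scaling (0.05), with DESeq2 (0.14) and without a low-count filter (0.16). Without heat replicate 3, the library highest for both miR-181 members in heat, it turned to -0.58 with 6 of 6 rows below 0, and without heat replicate 1 it was 0.45 with 0 of 6. Single libraries moved 3 of the other lists by over 1.5 times. Omitting heat replicate 3 gave medians of -0.63 for miR-148 and miR-152, -0.58 for miR-29 and -0.33 for miR-130 and miR-301. For miR-148 and miR-152 the median was -0.06 once heat replicate 1 was omitted. Omitting heat replicate 2 gave -0.06 for miR-29 and 0.05 for miR-130 and miR-301.

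Mir375 and Mir192 are markers of epithelium, and Mir143 marks smooth muscle and other mesenchyme. Mir375, known from hormone-secreting cells, had 1438, 771 and 585 CPM in control and 1485, 828 and 672 CPM in heat sperm. Mir192, abundant in gut, kidney and liver, had 1265, 649 and 722 CPM in control and 1092, 761 and 695 CPM in heat sperm. Mir143, in the Carmn transcript, had 1364, 1336 and 874 CPM in control and 1488, 803 and 952 CPM in heat sperm. All 3 overlapped between groups, with fitted log2 fold changes of 0.05, -0.02 and -0.22 and standard errors of 0.44 to 0.47. In RNA from a whole sperm preparation, fewer cells that carry a microRNA and less of it in each cell cannot be told apart.

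Marker microRNAs of other cell types were present at different levels. The epithelial list of 11 rows summed to 5232 to 9778 CPM in control and 4624 to 7035 CPM in heat sperm. Of its 11 rows, 2 are members (Mir375 and Mir192), and the others include miR-200 family rows that the rule left out. A fitted log2 fold change below 0 was found in 10 of the 11, beside 71.9% of microRNA rows tested. It was found in 7 when microRNA rows were fitted alone. The median of the 11 rows was -0.45, which became -0.93 on omitting heat replicate 3 and -0.22 on omitting heat replicate 1. The mesenchymal list of 8 rows summed to 921 to 1447 CPM in control and 843 to 1577 CPM in heat sperm. The neuronal list of 6 rows summed to 83.9 to 150.8 CPM in control and 64.2 to 84.0 CPM in heat sperm. As a share of microRNA counts it took 0.0755 to 0.0793% in control and 0.0505 to 0.0696% in heat sperm, without overlap. All other cell type lists overlapped on that scale, and the difference was not tested. The lists of endothelium, striated muscle and liver summed to at most 31.3 CPM in any library, with the liver marker miR-122 at most 1.09 CPM. The germ line list of 22 rows summed to 5908 to 13174 CPM in control and 6471 to 11175 CPM in heat sperm, a range that overlapped that of the epithelial list. Its rows Mir547 and Mir509 had mean levels under 1 CPM in both groups, of 0.539 and 0.364 CPM in control and 0.733 and 0.368 CPM in heat sperm. No row of these lists was at 0 in all libraries. The part of these cell types in the members' values was not tested.

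Of the 60 members, 17 lay on the X chromosome, more than on any other. Their fitted log2 fold changes were below 0 for 7 and above for 10, with a median of 0.06. The 10 include Mir465c-1 with Mir465c-2 and Mir465b-1 with Mir465b-2, pairs with nearly the same counts that are not independent. Of the 43 members elsewhere, 33 were below 0 and 10 above, with a median of -0.22. With microRNA rows fitted alone the medians were 0.40 and 0.09, so both moved up. Over the alternatives the X-linked median ran from -0.10 to 0.40 and that of the other members from -0.46 to 0.09. The difference between these sets was noticed after the values were seen and has no test.

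The germ line list had 22 rows, of which 20 were tested (11 below 0, 9 above, 0 called) and 14 were members. These 14 lie on the minus strand within 62.4 kb, at chrX:66776757-66839125 in GRCm38.p6. Their sum was 12964, 5812 and 6062 CPM in control replicates 1, 2 and 3 and 11024, 6903 and 6392 CPM in heat replicates 1, 2 and 3. As a share of microRNA counts the control mean was 5.63 ± 0.80% and the heat mean 6.23 ± 1.00% (SD, n = 3 per group), with ranges that overlapped. The whole cluster thus did not differ beyond its spread.

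Inside the cluster the rows differed by position. The 7 tested rows at the low-coordinate end, from Mir743 to Mir741, all had fitted log2 fold changes below 0, from -0.22 to -1.38, and 4 of them are members. Of all microRNA rows tested, 71.9% lay below 0. When microRNA rows were fitted alone, Mir743b was above 0 at 0.10 and the other 6 stayed below. Of the 12 tested rows of the cluster beyond Mir741, 8 were above 0 and 4 below, with a median of 0.10. Without control replicate 3 that median was -0.07 and 9 of the 12 were below 0, and 6 of the 12 were when heat replicate 3 was left out. The 8 rows above 0 include near-copies that are not independent measurements. Counts of Mir465c-1 and Mir465c-2 differed by at most 4.04% in any library, and those of Mir465b-1 and Mir465b-2 by at most 11.2%. Mir201, the other tested row of the list, lies 1211 kb from the first member and is not counted here. This split by position was seen in the data, with its edge set at Mir741, the lowest row of the cluster, and was not tested.

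Mir741 (chrX:66796805-66796875) had the smallest p-value of the 60. It had 941, 312 and 179 CPM in control and 406, 125.4 and 75.8 CPM in heat sperm, with means of 477 ± 407 and 202 ± 178 CPM (SD, n = 3 each). Heat replicate 1 lay above control replicates 2 and 3, and the groups overlapped. The fitted log2 fold change was -1.38 (SE 0.50), with an unadjusted p of 0.00959 and an adjusted p of 0.476 in edgeR. It was below 0 in all 14 alternatives, from -1.84 to -0.84. The adjusted p was 0.0531 without heat replicate 1 and at least 0.207 without any other single library. The replicates lay far apart, with a coefficient of variation of the share of microRNA counts of 53.8% in control and 72.8% in heat sperm.

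Shares of the cluster's own counts remove what moves all 14 together. Mir741 took 7.26, 5.36 and 2.95% of the cluster in control and 3.68, 1.82 and 1.19% in heat sperm. Mir743b took 10.9, 10.7 and 10.8% in control and 8.98, 9.07 and 9.67% in heat sperm, and its control libraries lay within a narrow band above all heat libraries. Mir743 took 2.42, 2.23 and 1.98% in control and 1.60, 1.57 and 1.81% in heat sperm, also without overlap. Mir883a took 4.24, 5.74 and 5.89% in control and 2.10, 3.43 and 4.58% in heat sperm, where control replicate 1 lay under heat replicate 3. In CPM Mir883a had 549.5, 333 and 357 in control and 231, 237 and 292.6 in heat sperm, without overlap.

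Toward the other end, Mir470 took 9.72, 8.63 and 7.32% of the cluster in control and 13.1, 11.6 and 9.63% in heat sperm. Heat replicate 3 lay just under control replicate 1. Mir465c-1 took 10.04, 11.5 and 10.9% in control and 12.5, 11.6 and 12.3% in heat sperm, without overlap. Mir465c-2 took 9.91, 11.03 and 11.4% and 12.5, 11.7 and 12.6%, but its counts lay within 4.04% of those of Mir465c-1 and add no separate evidence. The largest parts of the cluster were those of Mir881 and Mir871. Mir881 took 16.3, 15.8 and 21.3% in control and 14.2, 17.04 and 21.3% in heat sperm, and Mir871 took 14.5, 14.1 and 13.4% and 12.98, 17.4 and 13.7%, both overlapping. Shares of 1 sum are not independent, since a lower part for some rows raises that of the others. They were looked at after the values were seen and are given without a test. No share of rows without overlap over all features was computed on this scale.

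**Figure D3:**
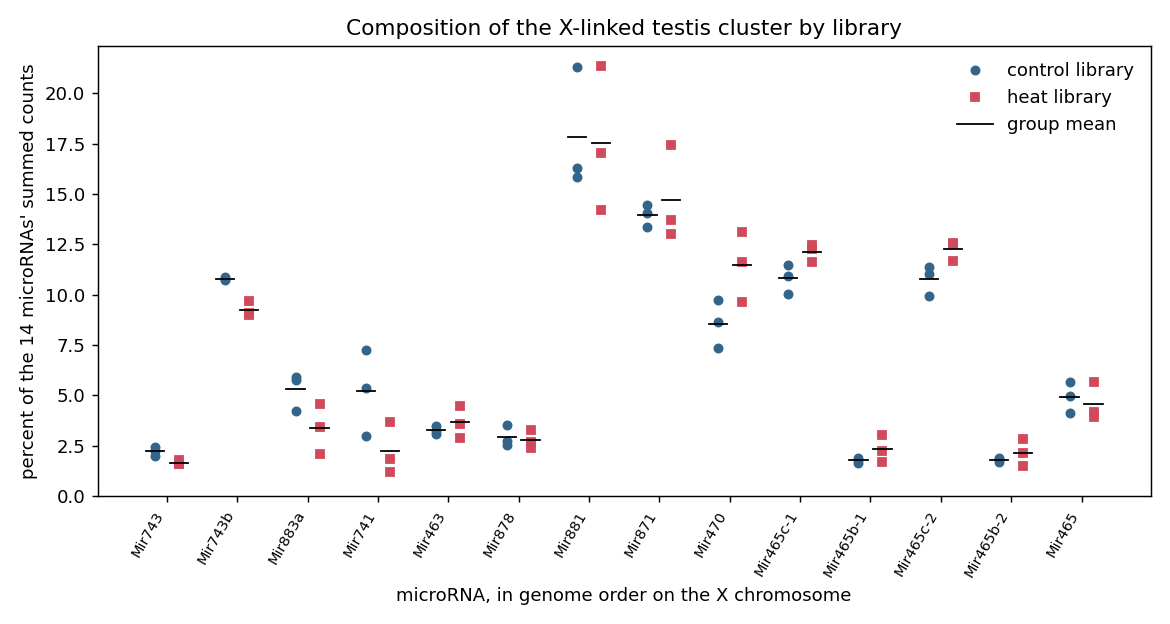
Percent of the summed counts of the 14 X-linked testis microRNAs taken by each, in genome order, for the 3 control (circles) and 3 heat libraries (squares), with group means as lines. The heat libraries lie lower at Mir743 and Mir743b and higher at Mir465c-1 and Mir465c-2 without overlap, while Mir881 and Mir871 overlap.

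The ratio of Mir470 to Mir741 joins the ends of this pattern. It was 1.34, 1.61 and 2.48 in control and 3.56, 6.40 and 8.12 in heat replicates 1, 2 and 3, or 1.81 ± 0.60 against 6.02 ± 2.30 (SD, n = 3 each). The groups did not overlap. The pair was chosen because it lay at the extremes of the cluster, so this value is a description.

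The remaining cluster members overlapped between groups in CPM. Mir881 had 2109.8, 920.3 and 1291 CPM in control and 1564, 1176 and 1364 CPM in heat sperm. Mir871 had 1874, 817 and 809 CPM in control and 1431, 1204 and 877 CPM in heat sperm. Mir743b had 1408, 622 and 652 CPM in control and 989.6, 626 and 618 CPM in heat sperm. The highest library of each of these was control replicate 1, as for most members. Mir463, Mir878, Mir465, Mir465b-1 and Mir465b-2 had mean control levels between 146.3 and 423.2 CPM and fitted log2 fold changes between -0.15 and 0.33. Outside the cluster, the X-linked Mir676, in Eda, took 0.0797, 0.0691 and 0.0646% of microRNA counts in control and 0.131, 0.0998 and 0.0827% in heat sperm, higher without overlap, with a fitted log2 fold change of 0.39 (SE 0.41).

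Mir3107 was the other member with an unadjusted p under 0.05, and its place among the 60 needs care. It had 68.2, 78.2 and 55.4 CPM in control and 269, 83.3 and 99.9 CPM in heat sperm. In CPM, all heat libraries lay above all control libraries, though heat replicate 2 exceeded control replicate 2 only slightly and heat replicate 1 stood far above the rest. The fitted log2 fold change was 0.93 (SE 0.43), with an unadjusted p of 0.0389 and an adjusted p of 0.476 in edgeR. It was above 0 in all 14 alternatives, from 0.74 to 1.25. As a share of microRNA counts the groups overlapped, with 0.0341, 0.0740 and 0.0448% in control and 0.178, 0.0739 and 0.0828% in heat sperm.

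RefSeq places Mir3107 at chr8:23142573-23142662, inside Mir486 at chr8:23142555-23142682, within the ankyrin gene Ank1. miR-486, a microRNA abundant in red blood cells and muscle, is among the numbers that the rule left out. The Mir486 row had 72.6, 75.8 and 60.5 CPM in control and 274, 83.0 and 96.5 CPM in heat sperm. The ratio of the counts of Mir3107 to Mir486 was between 0.915 and 1.04 in all 6 libraries, so the rows gave nearly the same values and cannot be told apart. Mir3107 is therefore not separate from a microRNA that the rule set aside. The other 7 rows of the blood marker list summed to 269, 160.2 and 124.6 CPM in control and 298, 138 and 126.9 CPM in heat sperm, highest in heat replicate 1 and overlapping. Mir451a, a red cell microRNA of that list, had 5.81, 8.71 and 5.91 CPM in control and 9.75, 3.20 and 10.9 CPM in heat sperm. Its fitted log2 fold change was 0.22, while Mir144, Mir142 and Mir142b, the other tested rows apart from Mir486, were at -0.55, -0.04 and -0.32. The part of blood cells in the value of Mir3107 was not tested.

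Some members varied widely between replicates. Over the 60, the median coefficient of variation of the share of microRNA counts was 14.0% among control and 20.5% among heat libraries, and that of CPM was 44.5% and 31.4%. It exceeded 50% of the mean share in 4 members among control and 7 among heat libraries. Those in control were Mir184, Mir741, Mir3473e and Mir690, and those in heat were Mir3107, Mir423, Mir690, Mir181d, Mir741, Mir3473e and Mir1247. The members named next were chosen for this spread after their values were seen.

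Mir1247, from the Dio3os transcript, had 137, 144.3 and 88.5 CPM in control and 708.3, 126.9 and 35.7 CPM in heat sperm. Heat replicate 1 was the highest of all 6 libraries and heat replicate 3 the lowest. Its fitted log2 fold change was 0.72 (SE 0.54), and -0.48 without heat replicate 1, which turned the direction. Mir423, inside Nsrp1, was also highest in heat replicate 1, with 115, 67.3 and 78.2 CPM in control and 252, 109 and 67.1 CPM in heat sperm and a fitted log2 fold change of 0.55 (SE 0.40), or 0.32 without that library. Mir184, known from lens and cornea, had 1175, 219 and 424 CPM in control and 664, 688 and 268 CPM in heat sperm, and its spread covered both groups.

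Mir690, Mir3473c and Mir3473e are lightly characterised mouse rows that lie within Fgf12, Traf5 and Rbks. Mir690 had 45.8, 19.004 and 185 CPM in control and 53.5, 59.5 and 19.1 CPM in heat sperm, with control replicate 3 far above the other libraries. Its fitted log2 fold change was -0.97 (SE 0.52), and 0.40 without control replicate 3, which turned the direction. Mir3473e had 33.7, 93.9 and 66.6 CPM in control and 169, 44.5 and 14.1 CPM in heat sperm, with both extremes in heat libraries. Mir3473c had 77.6, 93.4 and 104 CPM in control and 97.5, 102 and 42.1 CPM in heat sperm. Heat replicate 3 was the lowest heat library for all 3.

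The hairpins of these rows hold a common stretch, GAGAUGGCUC or its reverse complement GAGCCAUCUC, which is shown in capitals in the RefSeq hairpins because no other member hairpin has it.
Mir690 hairpin: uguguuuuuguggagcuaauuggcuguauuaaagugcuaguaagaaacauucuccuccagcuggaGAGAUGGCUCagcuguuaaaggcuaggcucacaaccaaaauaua
Mir3473c hairpin: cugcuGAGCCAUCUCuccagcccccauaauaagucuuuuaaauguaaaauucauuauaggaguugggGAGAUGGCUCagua
Mir3473e hairpin: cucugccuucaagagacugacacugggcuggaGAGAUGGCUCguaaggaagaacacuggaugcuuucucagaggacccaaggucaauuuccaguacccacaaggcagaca
The stretch was found after the values were seen and was searched on both strands, where the letters of a match on one strand are the reverse complement on the other. It was defined as the longest stretch that these 3 hairpins share, so their matches were fixed in advance. It was in 3 of the 54 member hairpins with a RefSeq sequence (5.56%). Of 1005 mouse hairpins searched, 12 held it (1.19%), as did 1.06% of the hairpins of microRNA rows tested. The wider sets include the same 3 hairpins, so these shares do not measure an enrichment. A match describes the letters only.

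**Figure D4:**
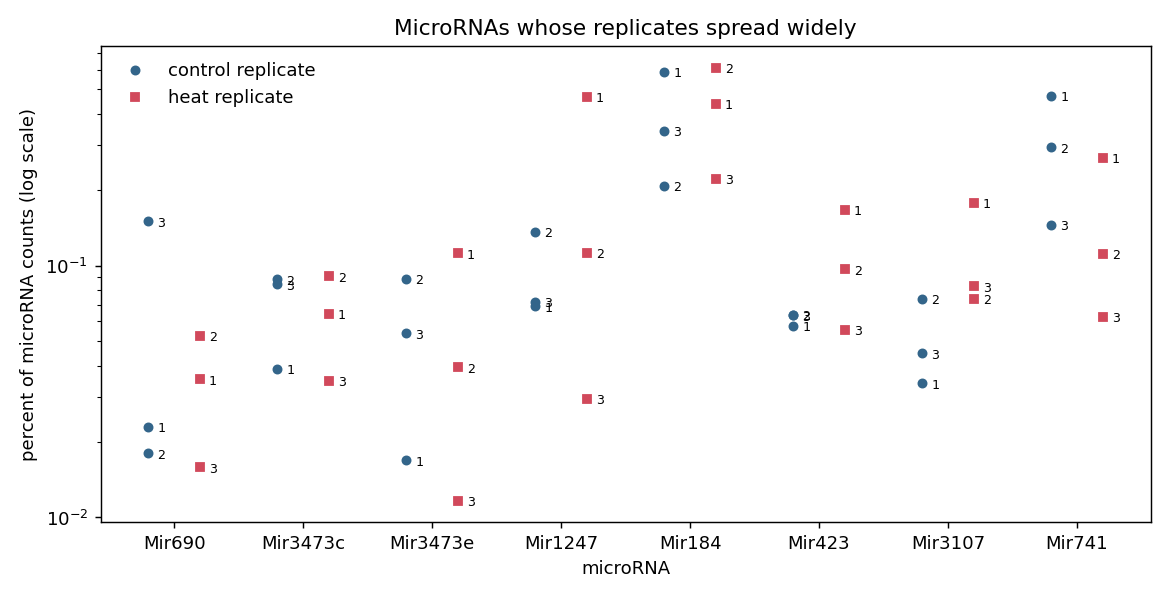
Percent of microRNA counts, on a log scale, of 8 members chosen for their spread or their p-value, with each control (circles) and heat replicate (squares) numbered. At Mir1247, Mir423, Mir3473e and Mir3107 heat replicate 1 is the highest library, and at Mir690 control replicate 3 is.

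Mir3535, which lies within the nucleolin gene Ncl, had 271, 244 and 235 CPM in control and 171, 154.2 and 132 CPM in heat sperm. These were among the tightest CPM values of the 60, lower in every heat library, with a fitted log2 fold change of -0.73 (SE 0.44) and an adjusted p of 0.548 in edgeR. As a share of microRNA counts they overlapped, with 0.136, 0.231 and 0.191% in control and 0.113, 0.137 and 0.110% in heat sperm. Outside the X-linked cluster, members not given here by library had fitted log2 fold changes between -0.28 and 0.17, all within 1 standard error of 0. They include Mir340 in Rnf130, Mir140 in Wwp2, Mir186 in Zranb2 and Mir708 in Tenm4. In all, 30 of the 60 overlap a protein-coding gene in RefSeq.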

How the data were processed

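Small RNA of 18 to 40 nt from cauda sperm was sequenced in 3 control and 3 heat libraries. The authors deposited raw counts for 2052 features per library. Bowtie2, Trimmomatic, RSEM and mm10 are listed in the submitters' processing notes, without versions or roles. The sources used here do not give the handling of reads shared by near-identical hairpins, and rows do not separate the arms of a hairpin. CPM and percent of microRNA counts were computed from these counts. Heat and control were compared with edgeR 4.0.16 (quasi-likelihood test, TMM scaling, default filter, Benjamini-Hochberg adjustment over 1407 features at 0.05). The steps were also run on simulated counts. These had a fixed spread between replicates that was not taken from these libraries, so the run does not show how the test performs at their spread. Each SE was obtained by dividing the log2 fold change by the root of its F statistic. Sums were compared with exact permutation tests. The series text calls the sperm libraries biological replicates, but no label ties them to separate males. The p-values therefore set the group difference against the spread between these libraries, part of which may be technical. Same-numbered libraries showed no common deviation, though so few libraries cannot exclude a pairing. Alternatives covered scaling, tool (DESeq2 1.42.0, limma 3.58.1), filter, replicate block, left-out replicates and choice of members. Members and lists were chosen with earlier results of these data known. Named members were the 12 most abundant, those with an unadjusted p under 0.05, up to 3 per list and relatives by seed or a 10 kb cluster; others were named after their values were seen. Sequences and positions are from RefSeq GRCm38.p6, where all 60 matched a gene, 1 by an older name.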

Additional observations from a re-analysis of the deposited data

How the results depend on the processing

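The count of members called was 0 under every alternative run, with smallest adjusted p-values of 0.0531 without heat replicate 1 and 0.0978 under the stricter filter (at least 10 CPM in at least 3 libraries). The number of members below 0 was 18 in place of 40 when microRNA rows were fitted alone. Leaving out 1 library at a time gave 28 to 51 members below 0 and medians of -0.35 to 0.02. In these left-out fits the difference in the members' share of all counts (heat less control, percentage points) ran from -1.06 to 0.65 and in their share of microRNA counts from -1.68 to 2.03. The share of all counts was higher in heat by 0.369 without rRNA counts and by 0.988 of microRNA and tRNA counts alone, against -0.405 over all counts. The causes of these turns were not tested. With the replicate number as a block, 0 members were called, 42 lay below 0, the median was -0.19 and the smallest adjusted p was 0.847. Deviations from the group mean correlated at -0.09, -0.37 and 0.13 for same-numbered libraries. For other pairs of a control and a heat library the values ran to -0.24 and 0.34 in the same fit. With so few libraries this check cannot exclude a pairing. Of the 34 members named by rule, 12 kept their sign in all 14 alternatives. They were Mir101a, Mir146b, Mir148a, Mir21a, Mir26a-1, Mir26a-2, Mir26b, Mir29a, Mir301 and Mir741 (lower) and Mir3107 and Mir423 (higher). Some came close to 0, with highest values of -0.007 for Mir26a-2, -0.01 for Mir26a-1 and Mir146b and -0.02 for Mir148a. Mir301 reached -0.03 and Mir26b -0.05, while Mir21a, Mir29a, Mir101a and Mir741 stayed at or below -0.108. Mir26a-1 and Mir26a-2 are not independent. No such count was made over all features. Over all features, calls numbered 0 in the fit as reported, 3 with library totals, 6 under the stricter filter, 12 without heat replicate 1 and 11 without heat replicate 3. Counts behind the members were high, so the spread between 3 libraries per group, not counting error, limits precision.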
